A study of Mus musculus with 6 samples.

Results

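Nutrient carriers of resting T cells are described here by 10 genes: the glucose carriers Slc2a1 and Slc2a3, the amino acid carriers Slc7a5, Slc7a6, Slc1a5, Slc38a1 and Slc38a2, the carrier chain Slc3a2, and the lactate and pyruvate carriers Slc16a1 and Slc16a3. They were taken by symbol from the table of raw read counts, which holds 14515 genes, and all 10 were found. The study asked how loss of LAIR-1 affects these cells at rest and compared naive CD8 T cells of 3 wild type (Lair1+/+) and 3 LAIR-1-deficient (Lair1-/-) mice, and LAIR-1 is a collagen receptor that restrains white blood cells. Splenocytes were depleted of red cells, and 100000 cells per mouse, gated on proteins that included CD45, CD3 and CD8 and on absence of CD44, were sorted into TRIzol and sequenced as 1 library per mouse. The labels give no age, sex or strain, no agent, no cell type to which the loss of Lair1 was restricted, and no account of which part of the gene was removed.

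A naive T cell is quiescent and imports little; on antigen receptor triggering, MYC and mTORC1 raise its glucose and amino acid carriers. SLC3A2, a heavy chain with a single membrane span, carries the light chains SLC7A5 and SLC7A6 to the surface. SLC7A5 takes up large neutral amino acids such as leucine in exchange for others, among them glutamine, which is brought in by SLC1A5, SLC38A1 and SLC38A2. SLC2A1 and SLC2A3 let glucose pass down its gradient, and SLC16A1 and SLC16A3 move lactate and pyruvate with a proton.

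Totals over genes were 7974206 to 9187017 counts in wild type and 5519748 to 7296424 in LAIR-1-deficient libraries, so every deficient library was shallower than every wild type library. Lair1 had 32 to 58 counts in wild type and 1 to 2 in deficient libraries, and it was the only gene of 9565 tested that passed the threshold (edgeR's quasi-likelihood test, log2 fold change -4.58 ± 0.57 SE, adjusted p = 0.00255). Without wild type mouse 1, 0 genes passed. Markers of the sort were present in all libraries, with Cd8b1 at 1457 to 1577 CPM and Cd3e at 1147 to 1634 CPM. Levels are given as CPM, the count of a gene relative to the TMM-scaled size of its library, and folds put LAIR-1-deficient over wild type. The labels tie each library to a mouse, so the tests compare mice. In edgeR's test the spread of a gene between mice is drawn toward the spread of the other genes. Its SEs and p-values thus do not rest on that gene's own spread alone. In such bulk RNA, fewer cells of a type and less RNA per cell cannot be told apart.

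None of the carrier genes passed the test between genotypes. Slc16a3 had too few counts to be tested, and 9 members were tested. By edgeR's quasi-likelihood test 0 of the 9 passed, against a background of 0.0105% of genes called. DESeq2 and limma-voom called 0 as well. At an unadjusted p under 0.05 stood 1 member, Slc7a6, where the background was 3.25%. Of the 9, 5 had a positive and 4 a negative log2 fold change, with a median of 0.01 beside 0.00059 over all genes tested. The median size of the log2 fold change, without its sign, was 0.04 for the members and 0.11 over all genes. The 95% interval lay within 1.5-fold in both directions for 8 of 9 members and for 63.2% of all genes tested. For these 8 members a change of that size in either direction lies outside the interval, which is set for each gene alone. Members and all genes were not matched for level in these comparisons. By mean CPM, Slc3a2, Slc38a2, Slc1a5 and Slc38a1 were at percentiles 87.8 to 95.2 of genes tested, and the other tested members at 35.5 to 68.1. The part of level was not tested.

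**Figure D1:**
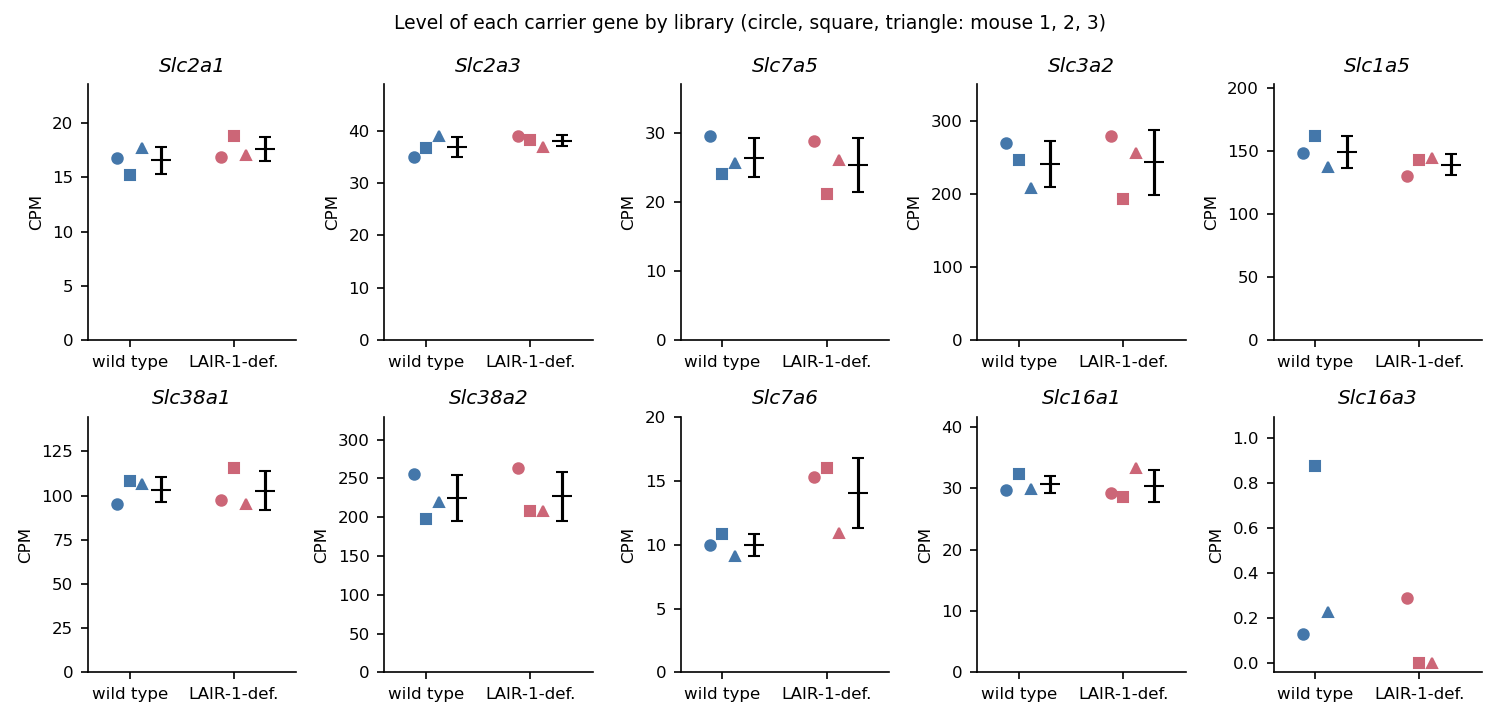
Level of each carrier gene in CPM (vertical axis, from 0) in the 3 wild type and 3 LAIR-1-deficient libraries; each symbol is 1 mouse, and the bar beside it is the mean ± SD, left out for Slc16a3, which was not tested. The genotypes overlap in every panel except that of Slc7a6, where the lowest deficient library (10.9 CPM) lies just above the highest wild type library (10.8 CPM).

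**Figure D2:**
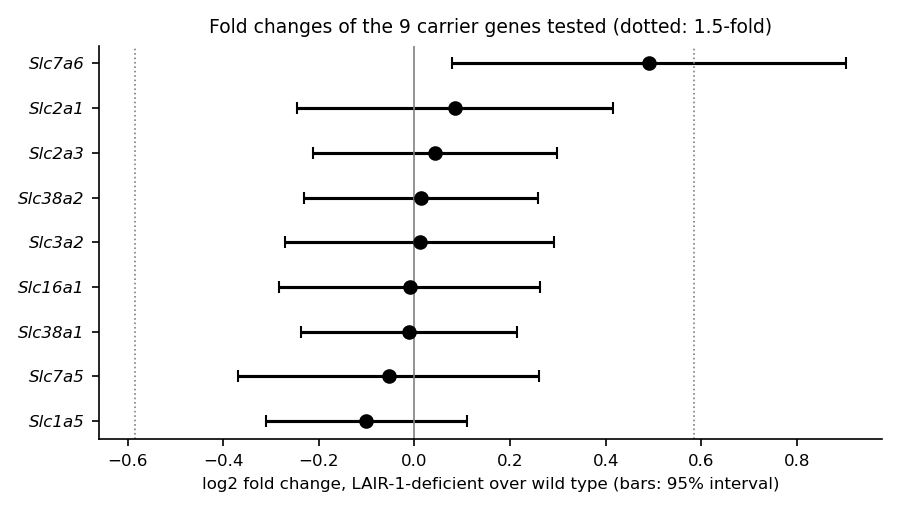
Log2 fold change of the 9 tested carrier genes (horizontal axis, LAIR-1-deficient over wild type), with 95% intervals from edgeR's quasi-likelihood test and dotted lines at 1.5-fold. The interval of Slc7a6 alone does not reach 0, and it crosses the upper dotted line.

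Slc2a3 was the steadiest of the tested members over the 6 libraries, and both glucose carriers varied between mice no more than their counts would by sampling. Slc2a1, the basal glucose carrier of many cells, is encoded by ENSMUSG00000028645.11 on chromosome 4 at 119108711 to 119137983 (plus strand, GRCm38). It was at 16.8, 15.2 and 17.7 CPM in wild type mice 1 to 3 and at 16.9, 18.9 and 17.1 CPM in deficient mice 1 to 3. The groups overlapped, and the log2 fold change came to 0.09 ± 0.16 (SE), with a 95% interval of -0.24 to 0.41. Slc2a3, the high-affinity glucose carrier, is annotated on chromosome 6 at 122727809 to 122801640 (minus strand). It was at 35.1, 36.8 and 38.9 CPM in wild type and 39.1, 38.2 and 36.9 CPM in deficient mice, a log2 fold change of 0.04 ± 0.12 (SE). All 6 libraries lay within 1.11-fold of each other. Its spread between mice, 5.25% of the mean in wild type and 2.85% in deficient mice, was no larger than the 5.61% and 6.34% that counting error gives at its 215 to 347 counts. For Slc2a1, the spread of 7.66% and 6.19% was also below the counting error of 8.37% and 9.31%. An antisense gene, Gm12868, shares 105 exon bases with Slc2a1, and it has no row of its own in the table.

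The chains of the leucine exchanger varied more between mice of a genotype than between the genotype means. Slc3a2, the shared heavy chain, is annotated on chromosome 19 at 8706882 to 8723369 (minus strand). It was at 270, 246 and 208 CPM in wild type and 280, 193 and 257 CPM in deficient mice. Mouse 1 was highest in each genotype, and deficient mouse 2 was lowest of all. Its means were 242 ± 31.2 and 243 ± 45.0 CPM (SD, n = 3 each), a fold of 1.01 with a 95% interval of 0.829 to 1.23. Slc7a5, the leucine-exchanging light chain, is annotated on chromosome 8 at 121881150 to 121907694 (minus strand). It was at 29.6, 24.1 and 25.7 CPM in wild type and 28.8, 21.2 and 26.1 CPM in deficient mice. Mouse 1 again topped each genotype and deficient mouse 2 was again lowest, and the log2 fold change came to -0.05 ± 0.15 (SE). The sign of this value turned without deficient mouse 2 (0.055) or wild type mouse 1 (0.033), and no fit brought it past the threshold.

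Slc7a6 was the tested member whose genotypes did not overlap, without passing the test. It encodes a light chain that exchanges cationic for neutral amino acids and is annotated on chromosome 8 at 106168857 to 106198706 (plus strand). Its counts were the lowest of the tested members, 79, 99 and 81 in wild type and 106, 90 and 80 in deficient mice. In CPM these were 9.96, 10.8 and 9.09 against 15.3, 16.0 and 10.9. All deficient libraries were above all wild type libraries, which held for 1 of 9 members and for 4.30% of genes tested, and deficient mouse 3 lay close to the wild type values. The means were 9.96 ± 0.873 and 14.1 ± 2.74 CPM, a fold of 1.41 with a 95% interval of 1.06 to 1.87. The log2 fold change was 0.49 ± 0.20 (SE), with an unadjusted p of 0.0222 and an adjusted p of 0.9999 in edgeR's test. The unadjusted p was 0.0366 by DESeq2 and 0.0329 by limma-voom. Leaving out 1 library at a time moved the log2 fold change between 0.39 (without deficient mouse 2) and 0.65 (without deficient mouse 3) and the unadjusted edgeR p between 0.00512 and 0.0922, and over all alternatives the adjusted p stayed between 0.958 and 1. Counting error alone is 10.8% and 10.5% of its level in the groups. The spread between mice was 8.77% in wild type and 19.5% in deficient mice. Its downstream neighbour Slc7a6os, on the opposite strand and without overlap in the annotation, was at 24.5 ± 2.19 and 26.1 ± 1.31 CPM.

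Slc7a6 had the largest spread of log2 CPM of the tested members, and the genes that followed it most closely over the 6 libraries were Bcl9l, Itpr3, Stard5, Mcat and Vps11. Likeness was the root mean square difference of log2 CPM after centring each gene on its own mean, over 6611 genes of at least 10 CPM, and it was 0.07 for Bcl9l and 0.11, 0.11, 0.11 and 0.12 for the others. Bcl9l, which assists beta-catenin in transcription, stood at 179, 173 and 170 CPM in wild type and 275, 286 and 201 CPM in deficient mice. In both genes deficient mice 1 and 2 were above deficient mouse 3. That mouse was near the wild type values for Slc7a6 and above them for Bcl9l, at 201 CPM against at most 179 CPM. Bcl9l was picked by its likeness to Slc7a6, so the shared pattern follows from the choice. None of the 5 passed the test over all 6 libraries with the low-count filter. Bcl9l passed edgeR's test without that filter and, with it, without deficient mouse 3.

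For the glutamine carriers the genotypes overlapped, and each interval included no change. Slc1a5, a sodium-coupled exchanger of small neutral amino acids, is annotated on chromosome 7 at 16781340 to 16798274 (plus strand). It was at 148, 162 and 138 CPM in wild type and 130, 143 and 145 CPM in deficient mice. Its log2 fold change came to -0.10 ± 0.10 (SE), with a 95% interval of -0.31 to 0.11. Its sign was negative in every alternative fit run, between -0.16 and -0.04. Slc38a1, a sodium-coupled uptake carrier, is annotated on chromosome 15 at 96571418 to 96642913 (minus strand). It was at 95.2, 108 and 107 CPM in wild type and 97.3, 116 and 95.3 CPM in deficient mice, a fold of 0.993 (0.848 to 1.16). Slc38a2, its relative that is induced when amino acids run short, lies on the same strand close by, from 96687392 to 96699730. It was at 256, 198 and 220 CPM in wild type and 264, 208 and 208 CPM in deficient mice. Mouse 1 was highest in each genotype, and the fold was 1.01 (0.853 to 1.20).

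The lactate carriers were a pair of unlike members. Slc16a1, which imports or exports lactate with its chaperone basigin, is annotated on chromosome 3 at 104638668 to 104658462 (plus strand). It was at 29.8, 32.3 and 30.0 CPM in wild type and 29.3, 28.6 and 33.4 CPM in deficient mice, all within 1.16-fold of each other, and showed a fold of 0.993 (0.822 to 1.20). Slc16a3, the lactate exporter of strongly glycolytic cells, is annotated on chromosome 11 at 120948480 to 120960868 (plus strand). It had 1, 8 and 2 counts in wild type and 2, 0 and 0 in deficient mice. A count of 0 allows up to 3 counts, or 0.534 CPM in deficient mouse 2 and 0.410 CPM in deficient mouse 3. The summed counts were 11 and 2, so that the deficient level was 23.8% of wild type with an exact 95% binomial interval of 2.56 to 109%, which covers counting error only. A difference was not detectable at this depth, and 8 of the 11 wild type counts came from mouse 2.

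Levels between genes are given as CPM per kb of annotated exon beside CPM, since a longer transcript can yield more fragments where reads cover all of it. Where in a gene the reads fall is not given in the sources used here. Across 9004 tested genes with a length, level and exon length had a Spearman correlation of 0.0032. It is given as a description across genes, which are not independent replicates. Level thus did not rise with exon length over all genes, and whether division by length suits these counts was not tested. The order per kb holds on that scale only. Slc3a2 led at 68.7 CPM per kb, with 54.8 to 79.4 over the 6 libraries. Slc1a5 followed at 34.6 CPM per kb (31.1 to 38.9) and Slc38a2 at 25.5 CPM per kb (22.4 to 29.8). On this scale these 3 did not overlap each other or any lower member, whereas by CPM Slc3a2 (193 to 280) and Slc38a2 (198 to 264) overlapped. Slc7a5 at 6.99 CPM per kb and Slc16a1 at 6.90 CPM per kb overlapped, as did Slc16a1 and Slc38a1 at 5.98 CPM per kb. Slc2a3 at 5.18 CPM per kb and Slc2a1 at 4.87 CPM per kb overlapped too. Slc7a6 at 2.63 and Slc16a3 at 0.0475 CPM per kb closed the order, each apart from its neighbour above. The scale changed the order, with Slc38a2 in place 2 by CPM and 3 per kb and Slc1a5 in place 3 by CPM and 2 per kb. Slc38a1, with 17236 exon bases, was in place 4 of 10 by CPM and in place 6 per kb, and Slc7a5 was in place 7 by CPM and in place 4 per kb.

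**Figure D3:**
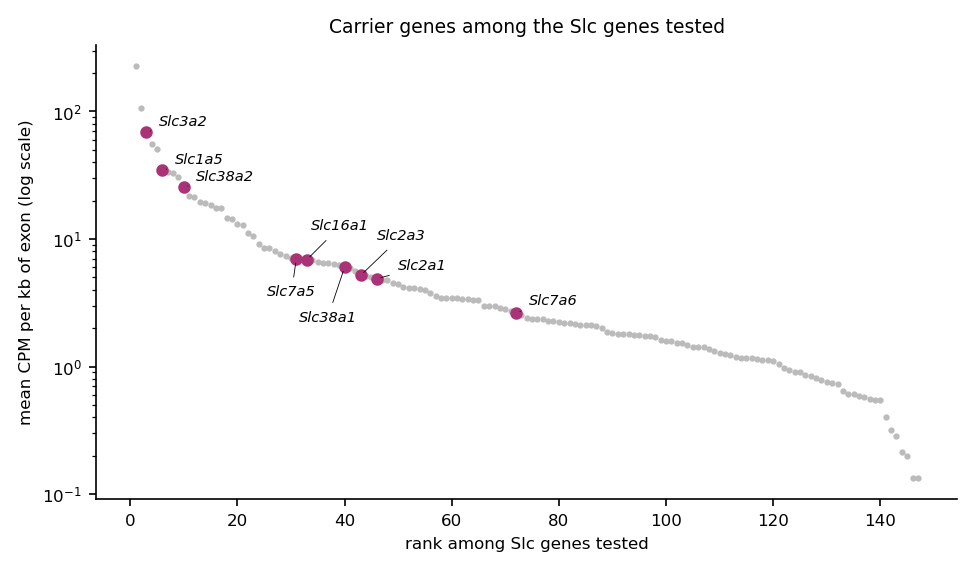
Mean level per kb of exon over the 6 libraries (vertical axis, log scale) against rank for the 147 tested Slc genes with a length; grey points are other Slc genes and purple points are the 9 tested carrier genes. Slc3a2, Slc1a5 and Slc38a2 sit at ranks 3, 6 and 10, and Slc7a6 at rank 72.

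Among the 147 tested genes of the Slc series with a length, Slc3a2 ranked 3, Slc1a5 6 and Slc38a2 10 by level per kb. Slc7a5 ranked 31, Slc16a1 33, Slc38a1 40, Slc2a3 43, Slc2a1 46 and Slc7a6 72. These ranks hold on the per kb scale only. Slc50a1, with 1466 exon bases, ranked 2 although its mean of 157 CPM was below those of Slc3a2 (243 CPM) and Slc38a2 (226 CPM). Tests were possible for 148 of the 237 Slc genes listed, 72 with a positive and 76 with a negative log2 fold change, and 0 passed edgeR's test. Within a library, Slc7a5 counts were 0.110, 0.0977 and 0.123 of Slc3a2 counts in wild type and 0.103, 0.109 and 0.102 in deficient mice. SLC3A2 also serves light chains other than SLC7A5.

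Ratios of partner genes within a library do not depend on how libraries are scaled, and none of the 3 pairs that could be computed differed by genotype beyond the spread between mice. The log2 ratio of Slc7a5 to Slc3a2 was -3.19 ± 0.17 in wild type and -3.26 ± 0.06 in deficient mice (SD, n = 3 each; two-sided exact permutation p = 0.6). Slc2a3 had 2.09, 2.42 and 2.20 counts per count of Slc2a1 in wild type and 2.32, 2.03 and 2.16 in deficient mice (exact permutation p = 0.6). Slc38a2 had 2.69, 1.82 and 2.07 counts per count of Slc38a1 in wild type and 2.71, 1.80 and 2.19 in deficient mice (exact permutation p = 0.9). Adjusted over the 3 pairs each p was 0.9, and 3 mice against 3 cannot go below 0.1. The differences, deficient minus wild type on the log2 scale, were -0.07, -0.04 and 0.02 with SEs of 0.10, 0.08 and 0.24. In the last pair mouse 1 was highest, mouse 3 next and mouse 2 lowest in both genotypes.

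**Figure D4:**
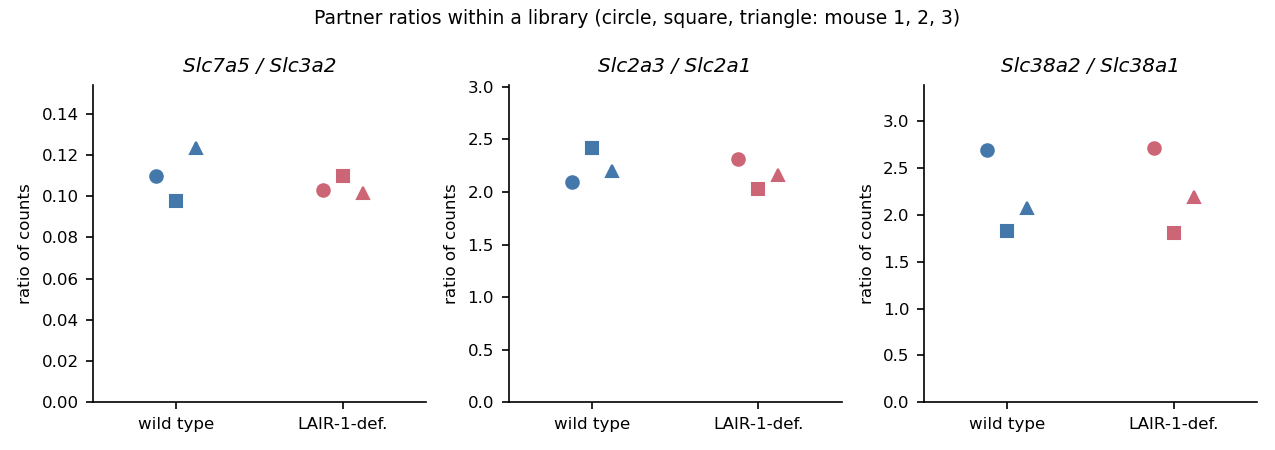
Ratio of counts of partner genes within each library (vertical axes, from 0) for Slc7a5 to Slc3a2, Slc2a3 to Slc2a1 and Slc38a2 to Slc38a1; each symbol is 1 mouse. The genotypes overlap in each panel, and the circles of mouse 1 in the right panel sit at 2.69 and 2.71, above the other 4 libraries (1.80 to 2.19).

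Slc3a2, Slc7a5 and Slc38a2 shared a pattern over mice. In these 3 of 9 members both mouse 1 libraries were above the other 4, as for 11.9% of all genes tested. For Slc38a2 the mouse 1 libraries held 256 and 264 CPM, and the other 4 held 198 to 220 CPM. The reverse, both mouse 1 libraries lowest, held for 0 of 9 members and 12.1% of genes. Snhg1, a noncoding RNA whose annotated start lies 106 bases from that of Slc3a2 on the other strand, was named after its values were seen. It was at 274 and 286 CPM in mouse 1 and at 176 to 204 CPM in the other libraries, and the annotation gives it no exon base in common with Slc3a2.

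Immediate early genes, which are switched on within minutes of a stimulus, moved with the same libraries. Their 24 genes summed to 15011 CPM in wild type mouse 1 and 18283 CPM in deficient mouse 1, against 6849 and 7524 CPM in the other wild type and 6502 and 6918 CPM in the other deficient mice. Both mouse 1 libraries stood above the rest for 20 of the 21 tested. Cd69, an early activation marker, was at 907 and 973 CPM in mouse 1 and at 169 to 232 CPM elsewhere. For Nr4a1 these levels were 473 and 588 CPM against 56.7 to 113 CPM. For Fosb they were 260 and 401 CPM against 29.2 to 74.6 CPM. Against those differences the 3 carriers moved little, with Slc3a2 at 1.12 and 1.17 times its geometric mean in the mouse 1 libraries. The part of these genes in the carriers' levels was not tested. Without mouse 1 of both genotypes, the log2 fold changes were -0.016 for Slc3a2, -0.070 for Slc7a5 and -0.0080 for Slc38a2.

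**Figure D5:**
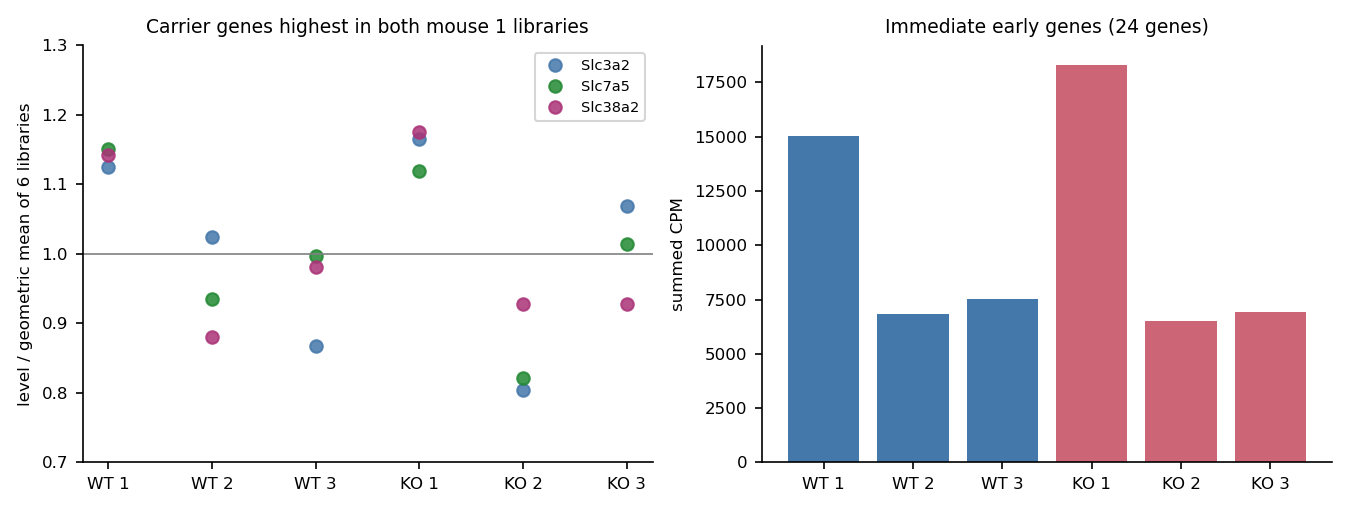
Left, level of Slc3a2, Slc7a5 and Slc38a2 in each library (WT, wild type; KO, LAIR-1-deficient; number, mouse) divided by the gene's geometric mean over the 6 libraries, on an axis from 0.7 to 1.3; right, summed CPM of 24 immediate early genes (bars from 0). In both panels the mouse 1 libraries are the highest, at up to 1.18 times the mean on the left and at 15011 and 18283 CPM on the right.

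Promoter sequence was at hand for 6 of the 10 genes, from RefSeq on GRCm38.p6, as windows of 250 bases before to 50 after a start. The windows of Slc38a2 and Slc3a2 are shown because these genes shared the pattern over mice, and that of Slc7a6 because its genotypes did not overlap. Capitals mark matches, on either strand, to the motifs searched: the E-box CACGTG, the cAMP response element TGACGTCA and its core TGACG, the AP-1 site TGANTCA, the ATF4 composite element TGATGNAA and the GC box GGGCGG. The full cAMP element contains the core.
Slc38a2, chr15:96699679-96699978, minus strand: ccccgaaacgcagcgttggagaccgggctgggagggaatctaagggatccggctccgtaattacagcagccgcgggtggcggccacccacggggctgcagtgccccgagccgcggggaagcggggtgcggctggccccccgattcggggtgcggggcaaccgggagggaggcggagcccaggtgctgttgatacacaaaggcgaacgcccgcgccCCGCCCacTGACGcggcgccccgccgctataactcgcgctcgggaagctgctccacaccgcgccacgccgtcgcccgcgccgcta
Slc3a2, chr19:8713848-8714147, minus strand: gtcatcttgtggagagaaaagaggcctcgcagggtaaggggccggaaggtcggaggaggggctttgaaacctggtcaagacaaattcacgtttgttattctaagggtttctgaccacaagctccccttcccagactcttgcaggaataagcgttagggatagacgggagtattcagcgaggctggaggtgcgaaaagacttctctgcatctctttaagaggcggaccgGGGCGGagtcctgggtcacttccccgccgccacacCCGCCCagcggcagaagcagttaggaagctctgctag
Slc7a6, chr8:106168604-106168903, plus strand: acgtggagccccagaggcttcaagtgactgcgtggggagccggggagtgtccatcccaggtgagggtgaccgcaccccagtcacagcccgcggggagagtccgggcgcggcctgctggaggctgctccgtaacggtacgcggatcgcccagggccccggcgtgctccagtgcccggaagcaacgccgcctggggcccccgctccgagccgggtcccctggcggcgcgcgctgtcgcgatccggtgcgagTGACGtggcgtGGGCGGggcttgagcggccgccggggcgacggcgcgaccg
The RefSeq start used for Slc3a2 lies 9472 bases inside the GENCODE gene, so this window is not the one that faces Snhg1. The core TGACG was found in the windows of Slc38a2, Slc7a6 and Slc16a3, 3 of 6 members, and in 20.8% of 32851 promoters. The E-box was found in 1 member, Slc16a1, and in 7.15% of promoters. The ATF4 element, the AP-1 site and the full cAMP element were in 0 of the 6 windows and in 3.97%, 7.81% and 1.79% of promoters. At such shares 6 windows are too few to show a lack of these elements, and sequence outside the windows was not searched. The GC box was in all 6 and in 35.7% of promoters; the members' windows held 56.0 to 76.7% G and C, against a median of 52.7%.

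Other genes of nutrient uptake and sensing gave no call either, by edgeR's test over all genes. Of 25 further carriers of sugars, lactate and amino acids 15 were tested, 7 positive and 8 negative with a median log2 fold change of -0.02. Slc6a6, the taurine carrier, had the smallest p of them, at 50.1 to 51.3 CPM in wild type and 51.9, 76.7 and 54.3 CPM in deficient mice. Slc36a1, a lysosomal amino acid exporter, had a log2 fold change of -0.33 ± 0.20 (SE).

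Genes of partners and traffic of carriers at the surface had positive fold changes in 7 of 8 cases, and 0 passed. Their median log2 fold change was 0.18, beside 0.00059 over all genes tested. The most abundant genes of the list, Txnip and Emb, were at 0.02 and -0.01. Genes of a list are not independent replicates. Bsg, which encodes basigin, the chaperone of SLC16A1 and SLC16A3, was at 75.7, 78.9 and 106 CPM in wild type and 97.9, 106 and 97.5 CPM in deficient mice. The groups overlapped through wild type mouse 3, and the log2 fold change came to 0.21 ± 0.12 (SE). Arrdc3, an arrestin-like adaptor of endocytosis, had a log2 fold change of 0.29 ± 0.26 (SE).

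Of 16 tested genes for the use of glucose, lactate and glutamine, fold changes were above 0 for 7 and below 0 for 9 (median -0.01). Hk1, a hexokinase that traps glucose in the cell, was at 69.0 to 87.0 CPM in wild type and 84.4 to 98.2 CPM in deficient mice. Mpc2, a chain of the mitochondrial pyruvate carrier, had a log2 fold change of -0.19 ± 0.14 (SE).

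Of 25 tested genes of amino acid sensing at the lysosome and mTORC1, 11 lay above 0 and 14 below 0 (median -0.01). Lamtor4, of the Ragulator complex that anchors mTORC1, was at 48.4 to 51.2 CPM in wild type and 55.2 to 58.7 CPM in deficient mice. All its deficient libraries were above all wild type libraries, as for 4.30% of genes tested, and its log2 fold change was 0.18 (SE 0.11). Castor2, a relative of the arginine sensor CASTOR1 that the table lists under the older symbol Gatsl2, was at 0.631 to 2.13 and 1.87 to 2.87 CPM.

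Transcription factors known to act on carrier genes had 12 positive and 5 negative fold changes of 17 tested, and 0 were called. Their median was 0.11, beside 0.00059 over all genes tested. Srebf1, a factor of lipid synthesis genes, was at 37.3 to 44.5 CPM in wild type and 46.1 to 49.5 CPM in deficient mice. All its deficient libraries were above all wild type libraries, as for 4.30% of genes tested. Its log2 fold change was 0.23 ± 0.12 (SE). Mlx, the partner of glucose-sensing factors, had a log2 fold change of 0.18 ± 0.11 (SE). The immediate early genes had a median of 0.05, and their members with the smallest p were Ier3 and Jund, with log2 fold changes of -0.32 (SE 0.44) and 0.28 (SE 0.43). Over these 6 lists, with 15, 8, 16, 25, 17 and 21 genes tested, 0 genes had an unadjusted p under 0.05 in edgeR's test. Over all genes tested, 3.25% did. DESeq2 and limma-voom called 0 genes of the lists.

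Markers of other cells are given beside the results above, as carriers are expressed by most cell types. Their sums were low for B cells, for macrophages and related cells and for CD4 T cells. For the NK cell list and the red cell and platelet list they were not. The 8 B cell genes found summed to 59.9 to 78.8 CPM in wild type and 56.9 to 65.9 CPM in deficient mice, led by Cd74 and Cd79b. The 15 genes of macrophages, monocytes, dendritic cells and neutrophils summed to 13.4 to 26.2 and 13.5 to 16.8 CPM, led by Hmox1 and Cd68, with Lyz2 at 0 in 4 libraries and at most 0.137 CPM. Hmox1, which encodes a haem-degrading enzyme, was at 5.04, 6.24 and 4.94 CPM in wild type and 1.59, 2.67 and 1.64 CPM in deficient mice. Its log2 fold change was -1.48 ± 0.35 (SE), with an unadjusted p of 0.000474 and an adjusted p of 0.9999 in edgeR's test. The 5 genes of CD4 T cells summed to 2.95 to 6.73 and 4.98 to 9.66 CPM, led by Ctla4 and Foxp3, and Cd4 was at most 2.46 CPM. The 7 NK cell genes summed to 407 to 427 and 399 to 447 CPM, nearly all of it Nkg7 and Eomes, which CD8 T cells also express, and Ncr1 was at 0 in 5 libraries. The 9 genes of red cells and platelets summed to 42.5 to 177 and 30.8 to 148 CPM, nearly all of it the haemoglobin row Beta-s, with wild type mouse 2 and deficient mouse 3 highest. The 9 genes of activated T cells summed to 71.1 to 82.9 and 72.5 to 81.0 CPM, led by Tfrc and Cd44. Top2a of this list, a topoisomerase of dividing cells named after its values were seen, was at 3.91, 9.19 and 8.75 CPM in wild type and 3.46, 4.09 and 4.24 CPM in deficient mice. Its unadjusted p was 0.0110 and its adjusted p 0.9999 in edgeR's test. Their part in the carriers' levels was not tested. None of the found markers was at 0 in every library.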

How the data were processed

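RNA of sorted naive CD8 T cells was measured in 6 libraries, 1 per mouse. The authors deposited raw read counts per gene. BWA and the build mm10 are named in the submitters' processing notes; of the annotation, counter, strand setting or molecular identifiers the sources used here say nothing, so overlapping and antisense genes cannot be told apart. Columns were matched by sample descriptions, groups by titles. The 4 spike-in rows (0 to 4 counts per library) were left out.

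All genes were fitted with edgeR 4.0.16 in R 4.3.3 (filterByExpr, smallest count 10; TMM; robust quasi-likelihood F test, two-sided, no covariate; Benjamini-Hochberg over 9565 genes, threshold 0.05). SEs and 95% intervals come from the fold change and F statistic. Common biological variation was 0.135. Counting error is the square root of the mean of 1 over the count. DESeq2 1.42.0, limma 3.58.1 (voom), other scalings and filters, and fits without each library were alternatives. Scripts were tested on simulated counts. Exon lengths and coordinates are from GENCODE vM21 (GRCm38).

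Members and gene lists were chosen with earlier results of these data known. The text names the members, Lair1, the 2 genes of smallest p per pathway list, the 2 most abundant per cell type list, and the 5 genes most like the member of largest spread. Nr4a1, Fosb and Cd69 were named in an earlier account. Bcl9l was among the 5. Snhg1, Slc7a6os, Lyz2, Cd4, Ncr1, Top2a, Txnip, Emb, Prdm16 and Tcf7l1 were chosen after their values were seen. List genes absent under their symbol (Slc2a6, Slc7a11, Samtor, Pax5, Klra8, Hba-a1, Hba-a2, Hbb-bt and Klf1) were not analysed here.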

Additional observations from a re-analysis of the deposited data

How the results depend on the processing

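In all alternatives 0 carrier genes and 0 genes of the pathway lists were called. Over all genes, 1 was called with all libraries, 3 without a low-count filter (Lair1, Bcl9l and Prdm16), and 0 with limma-voom or without mouse 1 of both genotypes. With a smallest count of 30, 0 were called, but Lair1 did not pass that filter, which is scaled to library size, and was not tested. Leaving out 1 library gave 0 to 2, with 0 without wild type mouse 1 and 2 without deficient mouse 2 (Lair1 and Tcf7l1) or 3 (Lair1 and Bcl9l); the cause was not tested. Signs near 0 turned. Without mouse 1 of both genotypes the log2 fold change was -0.015 for Slc2a3, -0.016 for Slc3a2 and -0.0080 for Slc38a2. Leaving out 1 library gave -0.16 to 0.055 for Slc7a5, -0.10 to 0.15 for Slc3a2, -0.10 to 0.039 for Slc38a1, -0.11 to 0.12 for Slc38a2 and -0.084 to 0.030 for Slc16a1. Slc2a1, Slc1a5 and Slc7a6 kept their sign in every fit. Mouse numbers did not show a pairing for every mouse: deviations of same-numbered mice correlated at 0.29, 0.0094 and 0.07. The mouse 1 value was the highest of any pair. Wild type mouse 2 correlated best with deficient mouse 3 (0.09), and wild type mouse 3 with deficient mouse 2 (0.18). With 3 mice per genotype this check cannot settle whether same-numbered mice belong together. With mouse number as a replicate block 1 gene was called, and 448 genes had an unadjusted p under 0.05 in edgeR's test, against 311 without the block. The log2 ratios of partners, whose differences a balanced block leaves as they are, had exact sign-flip p = 0.75 each. With 3 mice per genotype that test cannot go below 0.05 whatever the values, so it could not show a difference. Leaving out 1 library turned the sign of each ratio difference: -0.15 to 0.015 for Slc7a5 to Slc3a2, -0.092 to 0.015 for Slc2a3 to Slc2a1 and -0.13 to 0.18 for Slc38a2 to Slc38a1. Slc16a3 had too few counts to be tested.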
